A study of Mus musculus with 21 samples.

Results

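The genes described here are 10 members of the Notch pathway, taken by symbol from 26852 genes measured by RNA sequencing: the receptors Notch1, Notch2, Notch3 and Notch4, the ligands Jag1 and Dll1, and the HES/HEY genes Hes1, Hey1, Hey2 and Heyl. A Notch receptor is bound by a ligand on a neighboring cell, is then cleaved by an ADAM protease and by gamma-secretase, and releases an intracellular fragment that enters the nucleus. There the fragment joins the DNA-binding protein RBPJ and a Mastermind coactivator, and HES and HEY repressors are among the genes it switches on. In vessel walls Notch3 is the receptor of pericytes and smooth muscle cells, and in marrow mesenchymal progenitors Notch signaling is known to hold back osteoblast formation.

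The study asked how human acute myeloid leukemia changes the marrow niche, and how niche cells close to the first leukemic cells differ from those farther away. NSG mice, which lack functional lymphocytes and natural killer cells but keep myeloid cells, carried a green fluorescent reporter driven by Nestin sequences and were 8 to 12 weeks old at transplantation without conditioning. They received HL60 or ML1 cells, both human leukemia lines that release a lipid-permeable mCherry protein taken up by neighboring cells. Nes-low mesenchymal cells of the marrow gave 21 libraries. Untreated mice with no transplant gave 3 of them (ctrl, replicates 373, 374 and 375). At an early stage, 6 were from mCherry-positive cells (ch+) and 6 from mCherry-negative cells (ch-). The other 6 were from a late stage, and their titles do not name an mCherry sort. The study took all Nes-low cells to be touching leukemic cells by then. Each leukemic stage held 3 libraries from HL60 and 3 from ML1 mice. For the ML1 late libraries the treatment label describes mice without engraftment, while the titles and the time point label place them in the late stage, and they were analysed as late. In the study, ch- cells were sorted from the marrow that gave the ch+ cells, so libraries of these groups may share mice. No label ties a library to an animal or a ch+ to a ch- library, so all were tested as independent, and p-values measure the spread between these libraries only.

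Values are the authors' regularized log2 normalized counts, so a difference of 1 is a doubling. The sequencing depth of each single library is unknown, and the regularization shrinks differences of weakly expressed genes, which understates their changes. A gene was tested in limma where its mean over the 21 libraries reached 3.32, that is 10 normalized counts, and was called at an adjusted p under 0.1. This left 12976 genes and 9 of the 10 members. Dll1, with a mean of 2.19, fell below the limit and Notch4, with a mean of 3.32, lay just above it. Because these are bulk samples, fewer cells of a type and less RNA per cell cannot be told apart.

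The libraries had the profile of marrow stroma. The stromal genes Cxcl12, Lepr and Pdgfra had medians of 15.11, 12.50 and 11.86 in ctrl, and Nes, which encodes Nestin, had 7.43. The endothelial genes Pecam1, which encodes CD31, and Cdh5 were at 5.44 and 6.37, although the extraction text of the labels describes a sort of CD31+ cells. Human and mouse blood cells had been removed with magnetic beads before sorting. Transcripts of bone and cartilage cells were also abundant in ctrl, led by Col1a1 (median 20.27) and Col2a1 (16.08).

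Levels of different genes were compared as log2 value per kilobase of exon. In ctrl the order on this scale, with the SD of 3 libraries, was Notch3 8.44 ± 0.32, Notch2 7.70 ± 0.29, Hes1 7.31 ± 0.50, Heyl 7.19 ± 0.28, Jag1 5.91 ± 0.52, Hey1 5.08 ± 0.72, Notch1 4.32 ± 0.32, Hey2 3.59 ± 1.21, Notch4 0.31 ± 0.05 and Dll1 −0.12 ± 0.11. Notch2, Hes1 and Heyl lay within their spread of each other, as did Jag1 and Hey1, Hey1 and Notch1, Hey1 and Hey2, and Notch1 and Hey2. For ch- cells, with the SD of 6 libraries, the order was Notch3 8.28 ± 0.23, Notch2 7.88 ± 0.11, Hes1 7.57 ± 0.21, Heyl 7.42 ± 0.17, Hey1 6.11 ± 0.31, Jag1 5.97 ± 0.33, Notch1 4.71 ± 0.50, Hey2 3.21 ± 0.48, Notch4 0.32 ± 0.31 and Dll1 −0.06 ± 0.20. There Notch2 and Hes1, Hes1 and Heyl, Hey1 and Jag1, and Notch4 and Dll1 were within their spread of each other. For ch+ cells it was Notch2 7.71 ± 0.17, Notch3 7.45 ± 0.35, Hes1 7.34 ± 0.24, Heyl 7.25 ± 0.35, Hey1 5.61 ± 0.57, Jag1 5.50 ± 0.43, Notch1 4.17 ± 0.41, Hey2 2.20 ± 0.46, Notch4 0.24 ± 0.39 and Dll1 0.19 ± 0.44, so that Notch2 and Notch3 changed places. In this group Notch2, Notch3, Hes1 and Heyl were within their spread of each other, as were Hey1 and Jag1, and Notch4 and Dll1. Late cells had Heyl 9.60 ± 0.17, Notch3 9.32 ± 0.25, Hes1 8.03 ± 0.39, Notch2 7.86 ± 0.16, Hey1 7.48 ± 0.22, Jag1 6.61 ± 0.18, Notch1 5.73 ± 0.37, Hey2 3.60 ± 0.51, Notch4 0.38 ± 0.38 and Dll1 0.32 ± 0.49. Heyl and Notch3 stood first there, within their spread of each other, as were Hes1 and Notch2, Hes1 and Hey1, and Notch4 and Dll1. Notch3 and Notch2 were thus the more abundant receptors in every group, and Notch4 and Dll1 had the lowest levels.

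**Figure D1:**
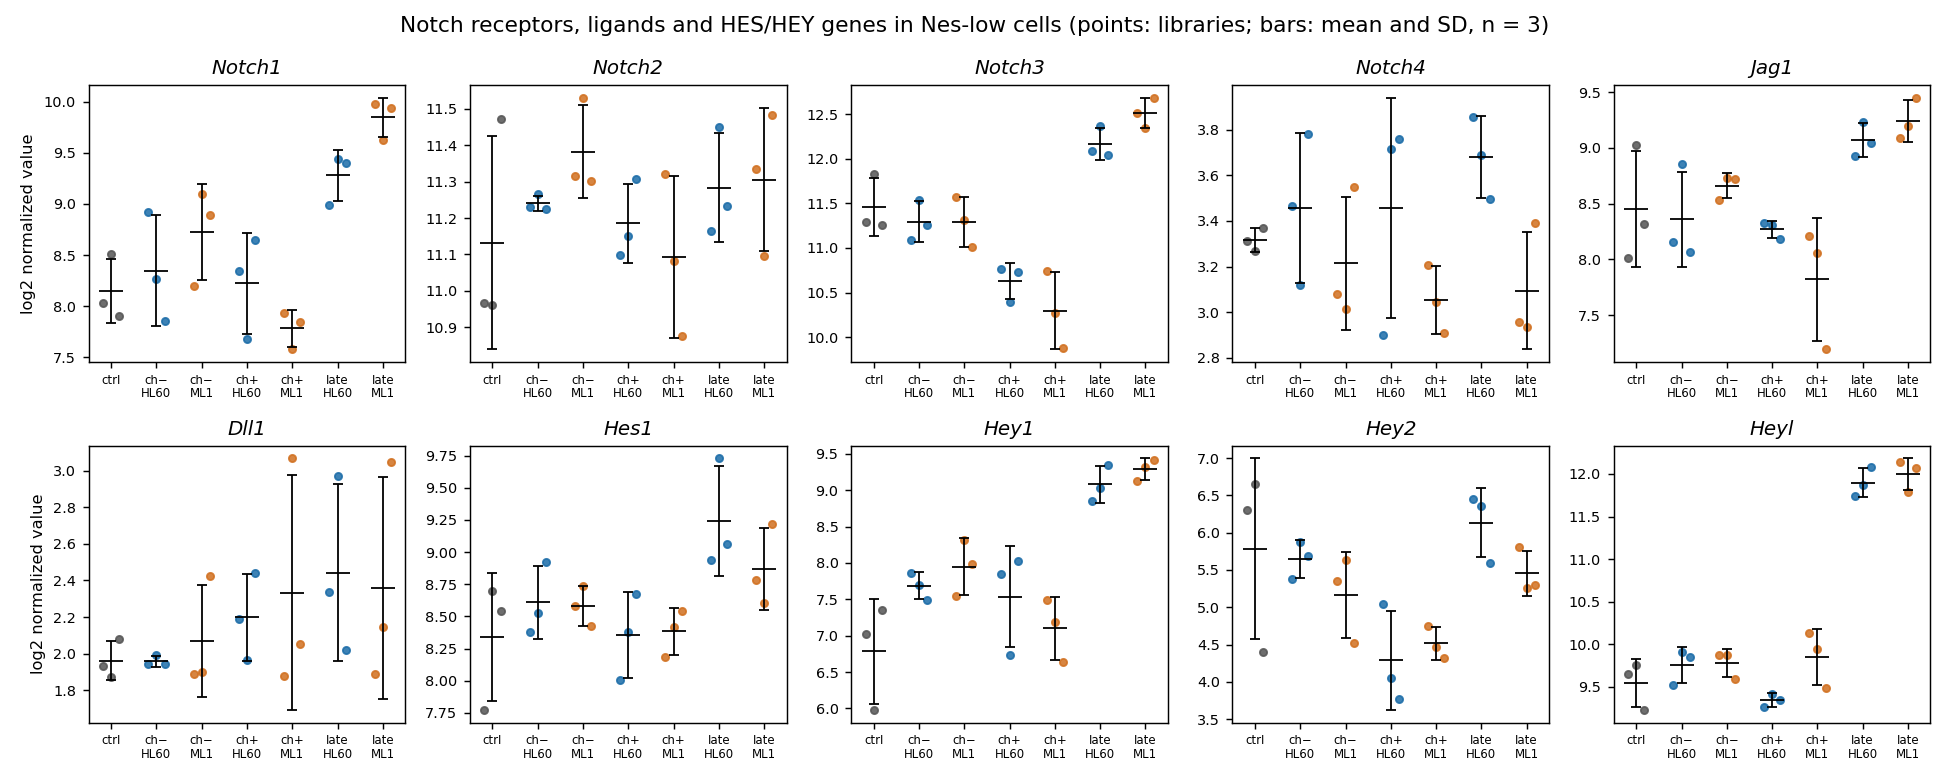
Log2 normalized value (vertical axes, which differ between genes and do not start at 0) of the 10 genes in ctrl (grey), HL60 (blue) and ML1 (orange) libraries. Points are libraries and bars the mean and SD of 3. The late libraries of Notch1, Notch3, Hey1 and Heyl all lie above every ctrl library, and the ch+ libraries of Notch3 all lie below. The share of all tested genes that separate in this way was not counted.

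Against ctrl, 6 of the 9 tested members were higher at the late stage and 0 were lower in limma: Notch1, Notch3, Jag1, Hes1, Hey1 and Heyl. Among all tested genes, 21.5% were called in this comparison and 10.2% were higher. An unadjusted p under 0.05 was found for 6 members. The median log2 fold change of the 9 members was 0.72, beside 0.02 for all tested genes. In ch+ cells 2 of 9 members were lower than in ctrl, Notch3 and Hey2, and 0 were higher, where 6.17% of all tested genes were called and 2.75% were lower, and 2 members had an unadjusted p under 0.05. In ch- cells Hey1 alone was called, higher than in ctrl, beside 1.92% of all genes called and 1.13% higher, and 1 member had an unadjusted p under 0.05. Compared with ch- cells, ch+ cells had 1 member lower, Notch3, where 6.26% of all genes were called and 2.68% lower. In this comparison 5 members had an unadjusted p under 0.05, all lower: Notch1, Notch3, Jag1, Hey1 and Hey2. The share of all tested genes with an unadjusted p under 0.05 was not counted in any comparison. Such counts, here and below, thus have no background to be read against. In late cells 7 of 9 members were higher than in ch+ cells, all but Notch2 and Notch4, where 19.7% of all genes were called and 8.79% were higher, and 7 had an unadjusted p under 0.05. The late counts, 6 and 7 of 9, lay above these shares, whereas the early calls rest on 1 or 2 genes. Because the members were chosen with earlier results of these data known, the counts are a description and no test of the set. The comparisons with ctrl share the same 3 libraries.

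Rescaling each library to the mean summed signal moved the median of all genes in late against ctrl from 0.02 to 0.71, and in late against ch+ from 0.02 to 0.63. In ch+ against ch- the median went from −0.02 to 0.13. Relative to that shift, Notch1 was 1.39 higher at the late stage than in ctrl, Notch3 0.86, Hes1 0.70, Jag1 0.68, Hey1 2.38 and Heyl 2.38. In ch+ against ch- cells Notch3 was −0.81 relative to the shift. The rescaling adds the same amount to every gene of a library. Values relative to the shift, here and below, therefore restate the main fold changes and are no separate check of them. Under this rescaling and under quantile normalization, the directions of the members called in a comparison did not flip.

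Notch3 (ENSMUSG00000038146, chr17:32120820-32166852 of GRCm38), the receptor of mural cells, was the one member called in both directions against ctrl. Its log2 values in ctrl were 11.29, 11.83 and 11.26. In ch- cells they were 11.09, 11.54 and 11.25 with HL60 and 11.57, 11.31 and 11.01 with ML1. The ch+ libraries had 10.76, 10.40 and 10.73 with HL60 and 10.74, 10.27 and 9.88 with ML1, so that each of the 6 lay below every ctrl and every ch- library. At the late stage the values were 12.08, 12.37 and 12.04 with HL60 and 12.51, 12.34 and 12.69 with ML1, each above every library of the other groups. How many of all tested genes separate in this way was not counted, for Notch3 or for any gene below. The log2 fold change was −1.00 (standard error 0.18, adjusted p = 0.000824, limma) in ch+ cells against ctrl and −0.83 (standard error 0.15, adjusted p = 0.000397, limma) against ch- cells. In ch- cells against ctrl it was −0.16 (adjusted p = 0.783, limma), which was not called. At the late stage Notch3 was 1.84-fold higher than in ctrl, with a log2 fold change of 0.88 (standard error 0.18, adjusted p = 0.000755, limma), and 3.68-fold higher than in ch+ cells, with 1.88 (standard error 0.15, adjusted p = 1.68e-10, limma). Each of these 4 calls passed without any single library. In limma both lines passed the test: against ctrl, ch+ cells gave −0.83 (adjusted p = 0.00882) with HL60 and −1.16 (adjusted p = 0.000166) with ML1, and late cells 0.71 (adjusted p = 0.012) and 1.05 (adjusted p = 9.57e-05). The difference between HL60 and ML1 was 0.33 (adjusted p = 0.721, limma) in ch+ cells and −0.35 (adjusted p = 0.564, limma) in late cells, not called in either.

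Notch1 (ENSMUSG00000026923, chr2:26457903-26516663), a receptor of many tissues, was called above ctrl in late cells and in neither early group. Its log2 values were 8.03, 8.51 and 7.91 in ctrl and 7.85 to 9.10 (median 8.58) in the 6 ch- libraries. They were 7.58 to 8.65 (median 7.89) in the 6 ch+ libraries. Late libraries had 8.99, 9.44 and 9.40 with HL60 and 9.98, 9.63 and 9.94 with ML1. All 6 late values lay above every ctrl and ch+ value, and both early groups overlapped with ctrl. In late cells against ctrl Notch1 had a log2 fold change of 1.41 (standard error 0.26, adjusted p = 0.000217, limma), and against ch+ cells 1.56 (standard error 0.22, adjusted p = 2.8e-06, limma). Within ML1 mice Notch1 was lower in ch+ than in ch- cells, with a log2 fold change of −0.94 (adjusted p = 0.0537, limma), and within HL60 mice the difference was −0.13 (adjusted p = 0.915, limma). The ML1 call was lost at −0.84 without ML1 early ch+ replicate 539, −0.76 without ML1 early ch- replicate 544 and −0.86 without ML1 early ch- replicate 546. The difference between the lines, 0.82 (adjusted p = 0.778, limma), was not called. With both lines pooled, the ch+ to ch- difference of −0.53 (adjusted p = 0.197, limma) missed the threshold, and it passed with −0.66 without HL60 early ch+ replicate 525 and −0.67 without HL60 early ch- replicate 529.

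Notch2 and Notch4 were not called in any comparison. Notch2, which is broadly expressed, had log2 values of 10.97, 10.96 and 11.47 in ctrl and of 10.88 to 11.53 across the 18 leukemic libraries. Its log2 fold changes over the 5 pooled comparisons ran from −0.17 to 0.18. For Notch4, known mainly from endothelium, the values ran from 2.90 to 3.86 over all libraries, and its log2 fold changes in the same comparisons from −0.08 to 0.13. Late libraries of both receptors thus overlapped with ctrl. Late against ctrl was called under the rescaling to library totals, at 0.85 for Notch2 and 0.76 for Notch4, which is 0.14 and 0.05 relative to the shift of all genes. So was late against ch+ cells, at 0.77 and 0.75, or 0.14 and 0.11 relative to the shift.

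Of the ligands, Jag1 (ENSMUSG00000027276, chr2:137081456-137116644) was well expressed. Its log2 values were 8.01, 9.03 and 8.32 in ctrl, 8.07 to 8.85 (median 8.62) in ch- cells and 7.19 to 8.32 (median 8.19) in ch+ cells. Late libraries had 8.93, 9.23 and 9.05 with HL60 and 9.09, 9.19 and 9.45 with ML1. All late values lay above all ch+ values, but ctrl replicate 374 overlapped with the late group. Late against ctrl, Jag1 had a log2 fold change of 0.70 (standard error 0.24, adjusted p = 0.0389, limma), and it lost its call at 0.48 without ctrl replicate 373 and 0.64 without ctrl replicate 375. Against ch+ cells it was 1.11 (standard error 0.19, adjusted p = 7.36e-05, limma). By line, late against ctrl gave 0.79 (adjusted p = 0.0314, limma) with ML1 and 0.62 (adjusted p = 0.147, limma), not called, with HL60. The ML1 call was lost at 0.57 without ctrl replicate 373, 0.72 without ctrl replicate 375 and 0.69 without ML1 late replicate 583, and HL60 passed at 0.91 without ctrl replicate 374 and 0.62 without ML1 early ch+ replicate 541. Between the late cells of the lines the difference was −0.17 (adjusted p = 0.947, limma). Within ML1 mice Jag1 was lower in ch+ than in ch- cells, with −0.84 (adjusted p = 0.0802, limma), whereas HL60 mice gave −0.09, and the difference between the lines of 0.75 (adjusted p = 0.778, limma) was not called. This ML1 call was lost with ML1 libraries alone, at −0.84, and at −0.53 without ML1 early ch+ replicate 541, −0.91 without ML1 early ch- replicate 543, −0.81 without ML1 early ch- replicate 544 and −0.81 without ML1 early ch- replicate 546, where replicate 541 held the lowest Jag1 value of all libraries. Dll1, the other ligand, was at 1.93, 1.87 and 2.08 in ctrl, and its highest value in any library was 3.07. No test was made for it.

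Heyl (ENSMUSG00000032744, chr4:123233556-123249875) and Hey1 (ENSMUSG00000040289, chr3:8663359-8667256), which encode repressors of the HEY family, had the largest changes of the 9 members in late cells against ctrl. The log2 values of Heyl were 9.66, 9.76 and 9.23 in ctrl, 9.52 to 9.91 (median 9.86) in ch- cells and 9.26 to 10.13 (median 9.46) in ch+ cells. Late libraries had 11.75, 11.87 and 12.08 with HL60 and 12.14, 11.79 and 12.06 with ML1. Both early groups thus overlapped with ctrl, while late libraries stood apart from all others. Heyl had a log2 fold change of 2.40 (standard error 0.17, adjusted p = 1.56e-10, limma) in late cells against ctrl, which is 5.28-fold, with 2.35 for HL60 and 2.45 for ML1. Against ch+ cells it was 2.35 (standard error 0.14, adjusted p = 3.78e-13, limma), higher in 6 of 6 late libraries.

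For Hey1 the log2 values were 7.03, 5.98 and 7.36 in ctrl. In ch- cells they were 7.87, 7.70 and 7.50 with HL60 and 7.54, 8.32 and 7.98 with ML1. The ch+ cells had 6.64 to 8.02 (median 7.34), and late libraries 8.86, 9.03 and 9.35 with HL60 and 9.12, 9.32 and 9.42 with ML1. Late and ch- values lay above every ctrl value, and ch+ values overlapped with ctrl. The log2 fold change of late against ctrl was 2.40 (standard error 0.29, adjusted p = 5.03e-07, limma), with 2.29 for HL60 and 2.50 for ML1. In late against ch+ cells it was 1.86 (standard error 0.23, adjusted p = 5.81e-07, limma). Between ch- cells and ctrl it was 1.03 (standard error 0.29, adjusted p = 0.0759, limma). This early call was lost at 1.15 without ctrl replicate 373, 0.62 without ctrl replicate 374, 1.02 without HL60 early ch- replicate 527, 0.93 without ML1 early ch- replicate 544 and 1.00 without ML1 early ch- replicate 546, and under 6 of 11 other settings. The ch+ to ch- difference of −0.50 (adjusted p = 0.296, limma) was not called.

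Hes1 (ENSMUSG00000022528, chr16:30064384-30067796), a target in many tissues, changed less. Its log2 values were 7.77, 8.70 and 8.54 in ctrl, 8.38 to 8.93 (median 8.55) in ch- cells and 8.01 to 8.67 (median 8.40) in ch+ cells. Late libraries had 8.94, 9.73 and 9.06 with HL60 and 8.78, 8.60 and 9.22 with ML1, so that ctrl and late overlapped. The log2 fold change of late against ctrl was 0.72 (standard error 0.22, adjusted p = 0.0226, limma), and it lost its call at 0.43 without ctrl replicate 373. It was 0.90 (adjusted p = 0.017, limma) with HL60 and 0.53 (adjusted p = 0.163, limma), not called, with ML1. The HL60 call was lost at 0.62 without ctrl replicate 373 and 0.66 without HL60 late replicate 398, and ML1 passed at 0.71 without ctrl replicate 374. The difference between late HL60 and late ML1 cells, 0.37 (adjusted p = 0.729, limma), was not called either. Against ch+ cells late cells were higher, with 0.69 (standard error 0.18, adjusted p = 0.00678, limma), and 5 of 6 late libraries lay above all ch+ libraries.

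Hey2 (ENSMUSG00000019789, chr10:30832359-30842801), a HEY repressor known from arteries and heart, fell in ch+ cells. Its log2 values were 6.30, 6.66 and 4.41 in ctrl, with replicate 375 the lowest. In ch- cells they were 4.52 to 5.88 (median 5.50). The ch+ libraries had 5.04, 4.05 and 3.78 with HL60 and 4.75, 4.47 and 4.32 with ML1, and the late libraries 5.26 to 6.45 (median 5.70). All ch+ values lay below all late values, and they overlapped with ctrl through replicate 375. In ch+ cells against ctrl the log2 fold change was −1.39 (standard error 0.42, adjusted p = 0.0586, limma), and it lost its call at −1.13 without ctrl replicate 373, −0.95 without ctrl replicate 374 and −1.26 without HL60 early ch+ replicate 525, and under 5 of 11 other settings. Without ctrl replicate 375 it was larger, at −2.08. Against ch- cells it was −1.00 (adjusted p = 0.103, limma), just short of the threshold, which it passed at −1.00 without ctrl replicate 374, −1.00 without ctrl replicate 375, −1.13 without HL60 early ch+ replicate 523 and −1.18 without ML1 early ch- replicate 546, and under 3 of 11 other settings. From ch+ to late cells Hey2 rose by 1.39 (standard error 0.34, adjusted p = 0.00401, limma), and late against ctrl gave 0.01 (adjusted p = 0.994, limma). The latter rests on single ctrl libraries and was 0.26 without ctrl replicate 373, 0.44 without ctrl replicate 374 and −0.68 without ctrl replicate 375, not called in any of these fits. The ch+ difference between the lines was −0.23 (adjusted p = 0.947, limma).

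HL60 and ML1 libraries of the same stage were compared directly for each member. At the late stage 0 of 9 members were called in limma and 1 had an unadjusted p under 0.05, where 4.09% of all genes were called. In ch+ cells the counts were 0 and 1 of 9 (0.0154% of all genes called), and in ch- cells 0 and 0 of 9 (0.0539%). The late difference with the smallest p was that of Notch1, −0.57 (standard error 0.27, adjusted p = 0.435, limma), lower with HL60. It was called with the compared groups fitted alone, at −0.57, and with sample weights. Other genes differed between the late cells of the lines in limma: 7 of 10 chondrocyte and 7 of 8 osteoblast genes were higher with HL60, and 7 of 10 immediate early genes were lower. Their part in the values of Notch1 was not tested. Heyl gave −0.51 (adjusted p = 0.538, limma) between the ch+ cells of the lines, with HL60 values of 9.26, 9.42 and 9.35 and ML1 values of 10.13, 9.95 and 9.49, and was not called.

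With each line set against the shared ctrl in limma, 5 of 9 members were higher in late HL60 cells (13.7% of all genes called) and 5 in late ML1 cells (22.0%). Percentages in this paragraph count genes called in either direction. Notch1, Notch3, Hey1 and Heyl were called with both lines, Hes1 with HL60 and Jag1 with ML1, where the differences between the lines were not called. In ch+ cells against ctrl, 2 members were lower with HL60 (5.33% of all genes), Notch3 and Hey2, and 1 with ML1 (6.69%), Notch3. Hey2 lost its HL60 call at −1.24 without ctrl replicate 373, −1.06 without ctrl replicate 374, −1.38 without HL60 early ch+ replicate 524, −1.24 without HL60 early ch+ replicate 525 and −1.50 without ML1 late replicate 583, and with ML1 it passed at −1.96 without ctrl replicate 375. Without that ctrl library the HL60 value was −2.19. In the same comparison Hey1 passed with HL60, at 1.14 without HL60 early ch+ replicate 524, and Jag1 with ML1, at −0.85 without ctrl replicate 373. For ch- cells the counts were 0 with HL60 (1.57%), where 1 member had an unadjusted p under 0.05, and 1 with ML1 (2.34%), Hey1, whose difference between the lines was −0.26 (adjusted p = 0.906, limma) and whose ML1 call was lost at 0.75 without ctrl replicate 374, 0.97 without ML1 early ch- replicate 544 and 1.14 without ML1 early ch- replicate 546.

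From ch- to ch+ cells 1 member was lower with HL60 (3.92%), Notch3, and 3 with ML1 (4.25%), Notch1, Notch3 and Jag1. Percentages here again count all tested genes called in either direction. With ML1 libraries alone Jag1 was not called and 2 members were, and the ML1 calls of Notch1 and Jag1 rest on single libraries as given above. The HL60 call of Notch3 was lost at −0.55 without HL60 early ch+ replicate 524 and −0.54 without HL60 early ch- replicate 528. Hey2 passed with HL60 at −1.36 without ctrl replicate 375 and −1.73 without HL60 early ch+ replicate 523. From ch+ to late cells 7 members were higher with HL60 (10.2%) and 5 with ML1 (16.9%), with Hes1 and Hey2 called with HL60 and not with ML1. Of the HL60 calls, Notch1 lost its own at 0.78 without HL60 early ch+ replicate 524 and Hes1 at 0.65 without HL60 late replicate 398 and 0.72 without HL60 early ch+ replicate 523. Jag1 lost its HL60 call at 0.72 without HL60 late replicate 398, 0.81 without HL60 late replicate 399, 0.83 without HL60 early ch+ replicate 523, 0.82 without HL60 early ch+ replicate 524 and 0.76 without HL60 early ch+ replicate 525. The difference between the lines in this change was not tested.

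**Figure D2:**
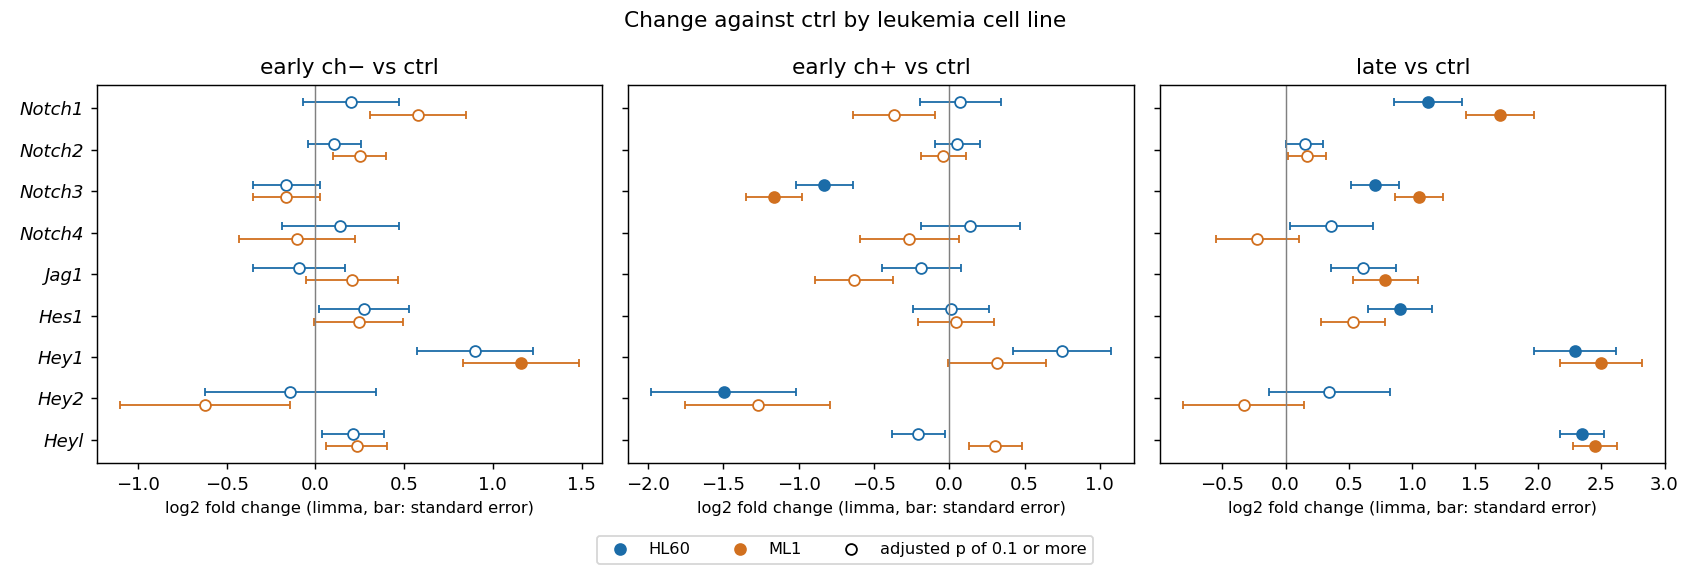
Log2 fold change against ctrl (horizontal axes, which differ between panels) of the 9 tested members in ch-, ch+ and late cells, for HL60 (blue) and ML1 (orange), with standard errors as bars and filled points where the adjusted p was under 0.1. Notch3 is called on the left of 0 in ch+ cells and on the right in late cells with both lines.

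Other genes of the pathway numbered 51, in 7 lists. Of these, 50 were in the table under the symbol used, 41 were tested and 9 lay below the limit. In late cells 2 were higher than in ctrl and 3 lower, in ch+ cells 0 and 1, and in ch- cells 0 and 1. An unadjusted p under 0.05 was found for 8, 2 and 3 of the 41 in these comparisons. From ch- to ch+ cells 2 were higher and 1 lower, and from ch+ to late cells 3 and 2. Among all tested genes 21.5% were called in late against ctrl, 6.17% in ch+ against ctrl, 1.92% in ch- against ctrl, 6.26% in ch+ against ch- and 19.7% in late against ch+. The 5 of 41 in each of the late comparisons thus lie below their background, and the early counts rest on 1 to 3 genes. The median late change from ctrl was 0.01. No test was made for the 6 other ligands, since Jag2, Dll4, Dlk1, Dlk2 and Dner lay below the limit and Dll3 was not in the table.

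Of 4 further targets, Hes5 and Hes7 lay below the limit and Hes6 was not called. Nrarp (ENSMUSG00000078202, chr2:25180758-25183339), a Notch target that encodes a negative regulator of the receptor fragment, fell together with Notch3 and Hey2 in ch+ cells. Its log2 values were 5.46, 5.86 and 5.94 in ctrl and 4.91 to 6.86 (median 5.54) in ch- cells. The ch+ libraries had 3.23, 3.23 and 3.88 with HL60 and 4.41, 4.51 and 3.24 with ML1, and the late libraries 3.12 to 5.24 (median 4.64). All 6 ch+ values were below every ctrl and ch- value. The log2 fold change of ch+ cells was −2.00 (standard error 0.43, adjusted p = 0.00456, limma) against ctrl and −1.89 (standard error 0.35, adjusted p = 0.000658, limma) against ch- cells. Unlike the HES/HEY members, Nrarp was also lower in late cells than in ctrl, with −1.30 (adjusted p = 0.0384, limma), a call lost at −1.24 without ctrl replicate 374 and −1.20 without ctrl replicate 375, at −1.38 with HL60 libraries alone and at −0.60 under the rescaling to library totals. By line, late against ctrl gave −1.38 (adjusted p = 0.085, limma) with HL60 and −1.21 (adjusted p = 0.104, limma), not called, with ML1, and the difference between the lines was −0.16 (adjusted p = 0.986, limma). From ch- to ch+ cells it was −2.29 (adjusted p = 0.00639, limma) with HL60 and −1.49 (adjusted p = 0.125, limma), not called, with ML1. In late against ch+ cells 0.71 (adjusted p = 0.207, limma) was not called, and it passed at 0.97 without HL60 late replicate 398 and at 1.32 under the rescaling, which is 0.69 relative to its shift.

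Among the 4 tested genes for receptor glycosylation, Lfng, a fringe enzyme that changes which ligands a receptor answers to, was called. It rose at the late stage, with 6.82, 4.35 and 4.85 in ctrl and 6.55 to 7.39 (median 6.84) in late libraries, by 1.57 (standard error 0.42, adjusted p = 0.00917, limma). Ctrl replicate 373 overlapped with the late group, and the change was 2.31 without that library. The call was lost at 1.07 without ctrl replicate 374. Without ctrl replicate 373 Lfng was also called in ch+ cells against ctrl, at 1.53, and in late against ch+ cells, at 0.77. The latter was also called with the compared groups alone and, at 1.39, under the rescaling. Of the 11 genes for turnover 10 were tested, and Dtx4, a Deltex ubiquitin ligase, was called, with 8.73, 8.36 and 7.60 in ctrl and 9.05 to 9.49 (median 9.42) in late libraries. Every late library lay above all ctrl libraries, and Dtx4 rose by 1.14 (standard error 0.24, adjusted p = 0.0008, limma) against ctrl and by 1.36 (standard error 0.19, adjusted p = 4.44e-06, limma) against ch+ cells.

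All 10 genes for receptor cleavage were tested. Furin, which cuts the receptor on its way to the surface, had 9.80, 9.63 and 9.74 in ctrl, 8.88 to 9.38 (median 9.13) in ch- cells and 9.79 to 10.24 (median 9.97) in ch+ cells. It was higher in ch+ cells than in every ch- library in 6 of 6 libraries, by 0.85 (standard error 0.12, adjusted p = 1.37e-05, limma). In 6 of 6 ch- libraries it lay below all ctrl libraries, with −0.60 (adjusted p = 0.0373, limma). The ch- call was lost at −0.56 without ctrl replicate 373 and −0.59 without ctrl replicate 375, and at −0.46 with ML1 libraries alone. From ch+ to late cells it fell, with −0.56 (adjusted p = 0.00107, limma), but the direction flipped to 0.06 under the rescaling to library totals, which is −0.57 relative to its shift. Ncstn, a gamma-secretase subunit, was higher in ch+ than in ch- cells, by 0.64 (adjusted p = 0.0278, limma), with 4 of 6 libraries above all ch- libraries. The call was lost with HL60 libraries alone, at 0.68, and with ML1 libraries alone, at 0.60.

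Of 8 genes of the nuclear complex, Rbpj and the coactivator Maml2 were higher in late than in ch+ cells, by 0.44 (adjusted p = 0.0629, limma) and 0.77 (adjusted p = 0.0331, limma). Of the 6 late libraries, 5 lay above all ch+ libraries for Rbpj and 6 for Maml2. Both calls depend on single libraries: Rbpj lost it at 0.35 without ML1 late replicate 581, 0.40 without ML1 late replicate 582, 0.41 without ML1 late replicate 583, 0.41 without HL60 early ch+ replicate 523 and 0.39 without ML1 early ch+ replicate 541, and Maml2 at 0.61 without ML1 early ch+ replicate 541. With HL60 libraries alone neither was called, at 0.15 for Rbpj and 0.35 for Maml2, whereas ML1 libraries alone gave 0.73 and 1.19, both called, and the difference between the lines in this change was not tested. Both calls were also lost without a filter on low values, and that of Rbpj without the variance trend. Against ctrl, late Maml2 passed at 1.09 without ctrl replicate 373 and 0.70 without ML1 early ch- replicate 543, and late Rbpj at 0.57 without HL60 late replicate 398, 0.51 without HL60 late replicate 399 and 0.47 without ML1 early ch- replicate 543, though neither was called in the main fit with all libraries. Other settings with all libraries called Rbpj there as well: a filter at a mean log2 value of 5, quantile normalization, sample weights and the 7-group fit. So did the rescaling to library totals, at 1.16, and ML1 libraries alone, at 0.76. Maml2 was called there with the compared groups alone, the 7-group fit and, at 1.39, the rescaling. Between ch+ and ch- cells Rbpj differed by 0.41 (adjusted p = 0.181, limma), not called, but it was called as higher in ch+ cells with the 7-group fit and, at 0.56, under the rescaling. Of 7 repressor genes at RBPJ, Spen and Ctbp1 were lower in late cells than in ctrl, with −0.55 (adjusted p = 0.00685, limma) and −0.56 (adjusted p = 0.029, limma) and all 6 late libraries below ctrl. These late decreases turned to 0.14 and 0.13 under the rescaling, and relative to its shift they were −0.57 and −0.58. Ctbp1 lost its call at −0.45 without ctrl replicate 374 and at −0.52 with ML1 libraries alone. Spen was also lower in late than in ch+ cells, with −0.35 (adjusted p = 0.0411, limma) and 4 of 6 late libraries below all ch+ libraries, a call lost at −0.30 without HL60 late replicate 398 and −0.29 without ML1 early ch+ replicate 538, and at −0.23 with ML1 libraries alone. Under the rescaling this difference turned to 0.27 (adjusted p = 0.091, limma), a call in the other direction, which is −0.37 relative to the shift.

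**Figure D3:**
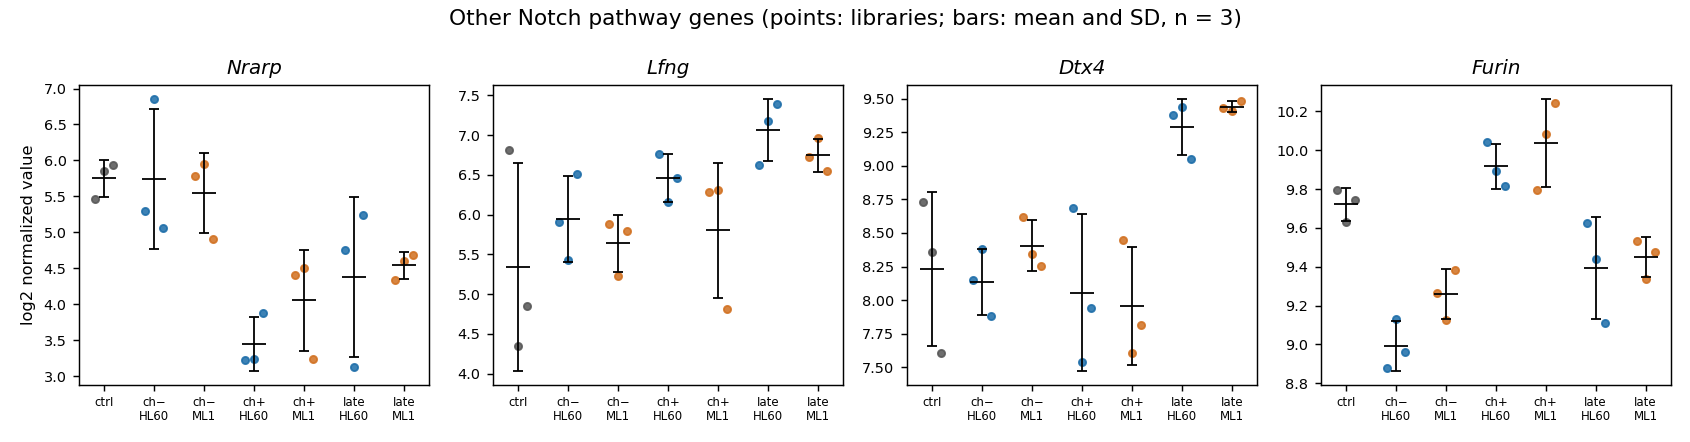
Log2 normalized value (vertical axes, which differ between genes and do not start at 0) of Nrarp, Lfng, Dtx4 and Furin in ctrl (grey), HL60 (blue) and ML1 (orange) libraries, with points for libraries and bars for the mean and SD of 3. All ch+ libraries of Nrarp lie below every ctrl library, and all late libraries of Dtx4 lie above. The share of all tested genes that separate in this way was not counted.

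Genes whose mean-centred values over the 21 libraries differed least from those of a called member, Hes1 aside, were looked for among the other tested genes, with the root mean square difference on the log2 scale given in parentheses. Nearest to Notch3 were Rbpms (0.30), Jag1 (0.37) and Jup (0.38), where the SD of Notch3 itself was 0.76. For Notch1 they were Snx18 (0.34), Apbb2 (0.35) and Rbpms (0.37), beside its own 0.73. Jag1, with 0.53, was followed most closely by Zfp36l1 (0.29), Smad7 (0.31) and Mlxip (0.32). Rbpms was thus near to both receptors, and Jag1 was among the nearest genes to Notch3. Those nearest to Heyl (1.06) were Itga1 (0.36), Cygb (0.39) and Steap4 (0.39), to Hey1 (0.95) Hdx (0.41), Ctsc (0.42) and Rftn1 (0.43) and to Hey2 (0.80) Itga8 (0.45), Synpo2 (0.48) and Mfge8 (0.48).

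Markers of other cell types moved between the same groups. Of 13 mural and smooth muscle genes, 8 were lower in ch+ cells than in ctrl and 8 lower than in ch- cells, as Notch3 was. Ctrl libraries had a summed log2 level of 14.52 to 15.29, with Rgs5 the most abundant. The ch- sums were 14.18 to 14.79, the ch+ sums 13.57 to 13.88 and the late sums 14.45 to 14.69. Late cells had 7 of them lower than in ctrl and 2 higher, or 3 and 4 under the rescaling to library totals. From ch+ to late cells, where Notch3 rose too, 9 were higher and 1 lower, or 12 and 1 under the rescaling. Among examples chosen after their values were seen, the contractile genes Acta2 and Myh11 had late log2 fold changes of −1.49 and −1.95, both called. Genes known from pericytes went both ways: Pdgfrb and Abcc9 were higher, with 2.00 and 1.38, Rgs5 and Cspg4 were lower, with −0.66 and −1.97, and Kcnj8, with 0.67, was not called. The part of mural cells in the changes of Notch3 and Heyl was not tested.

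Of 8 stromal genes, 5 were higher than in ctrl and 1 lower at the late stage, or 8 higher under the rescaling. In ch+ cells 5 were also higher than in ctrl. Their summed level, led by Cxcl12, spanned 15.44 to 16.07 for ctrl, 15.52 to 16.45 for ch- libraries, 16.20 to 16.79 for ch+ libraries and 16.68 to 17.00 for late ones. All 10 chondrocyte genes were lower in late cells than in ctrl and 9 in ch+ cells, with sums led by Col2a1 of 16.72 to 17.64 for ctrl, 16.15 to 16.93 for ch-, 15.10 to 15.86 for ch+ and 12.22 to 14.71 for late libraries. Of 8 osteoblast genes 7 were lower at the late stage, with sums led by Col1a1 of 20.24 to 20.69 in ctrl and 15.98 to 18.89 in late libraries. The 12 endothelial genes, 9 of them tested, had low sums of 8.40 to 8.87 in ctrl and 7.87 to 8.59 in late libraries, led by Cdh5, with Cldn5 near the floor at 1.97. Late cells had 0 of them higher and 1 lower than ctrl in limma, 2 had an unadjusted p under 0.05, and under the rescaling to library totals 2 were higher.

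Of 7 tested blood cell genes, 6 were higher than in ctrl in ch- cells and 7 in ch+ cells. The sums, led by Lyz2, were 8.01 to 8.87 for ctrl, 10.34 to 11.37 for ch-, 9.96 to 11.16 for ch+ and 6.76 to 8.00 for late libraries, and Cd52 was near the floor, with a late median of 1.30. All 7 red cell genes were higher in both early groups, with sums led by Hbb-bs of 8.37 to 9.45 for ctrl, 12.31 to 13.32 for ch-, 12.09 to 13.66 for ch+ and 6.46 to 6.95 for late libraries. Of 4 tested skeletal muscle genes, 4 were higher in ch+ cells than in ctrl, with sums led by Acta1 of 5.69 to 6.94 in ctrl and 7.23 to 9.25 in ch+ libraries. Of 10 immediate early genes, which respond to stress and dissociation, 7 were lower in ch+ than in ch- cells, or 2 under the rescaling to library totals, with sums led by Egr1 of 15.59 to 15.75 and 16.02 to 16.25. The summed signal of a library, all genes together, was 11.9 to 14.2 megacounts in ctrl and 7.26 to 9.02 in late libraries. The part of each of these shifts in the values of the members was not tested.

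Promoter sequences from RefSeq (GRCm38.p6), 250 bases before to 50 after a transcription start, were searched on both strands for the RBPJ letters TGGGAA, the E-box CACGTG and the N-box CACNAG, the last pair being letters that HES and HEY proteins are known to bind. An entry was found for 7 of the 10 members, and Hes1, Hey1 and Heyl were without one. Hey2 was the one member with RBPJ letters, in 1 of 7 genes, where 25.6% of 32851 promoters hold them. N-box letters were found in 4 of 7 (42.5% of promoters) and E-box letters in 0 of 7 (7.15%). Of 42 other pathway genes with an entry, 15 had RBPJ letters, 17 N-box letters and 5 E-box letters. Counts of genes are over all entries of a gene, up to 2 for a member and 3 for another gene, while the percentages are of single entries, so the units differ. These matches describe letters in a window and are not binding sites. Among the called genes, Hey2, Lfng, Rbpj, Maml2 and Spen have RBPJ letters. The windows of Hey2 and Lfng, picked as 2 examples after the data were seen, are given 5′ to 3′ on the strand of the gene, with the RBPJ letters or their reverse complement in capitals. Those of Hey2, on the minus strand, are chr10:30842973-30843002, outside the annotated gene, and chr10:30842769-30842798, which spans the transcription start and overlaps its exon. Those of Lfng, on the plus strand, are chr5:140607194-140607223 and chr5:140607221-140607250, both upstream of the gene, and the E-box letters of Lfng overlap its second match.
Hey2 upstream: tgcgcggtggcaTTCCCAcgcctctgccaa
Hey2 at the start: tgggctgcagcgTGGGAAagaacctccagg
Lfng first: ccagctgggtggTTCCCAgccccttgtccg
Lfng second: ccgtatcccacgTGGGAAggagagatctcc

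For Notch3, which was called in both directions against ctrl, the 250 bases before the start at chr17:32166891-32167140 (minus strand, outside the annotated gene, 68.8% G or C) hold 0 RBPJ matches and 2 N-box matches, which are in capitals. Nrarp, which fell with it in ch+ cells, has 2 N-box matches and E-box letters, of which the latter, in chr2:25180638-25180667 on the plus strand, are again in capitals.
Notch3: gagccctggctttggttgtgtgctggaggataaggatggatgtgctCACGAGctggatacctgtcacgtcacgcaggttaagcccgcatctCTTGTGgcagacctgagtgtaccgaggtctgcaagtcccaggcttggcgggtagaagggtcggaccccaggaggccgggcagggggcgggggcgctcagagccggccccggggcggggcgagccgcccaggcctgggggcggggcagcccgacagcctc
Nrarp: ccgccccgccccCACGTGggcaccacccaa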

How the data were processed

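RNA of sorted Nes-low cells was sequenced in 21 libraries. Per the labels, the authors aligned reads to mm10 with STAR 2.5.1b and counted them with RSEM 1.2.29, and DESeq2 1.10.1 is named for normalization. The deposited values are regularized log2 values of normalized counts, with a range of −2.33 to 22.44. The methods of the study speak of a log10 transformation, but on that scale the highest value would exceed any sequencing depth. Whole reads could not be recovered, so no count model was run, and the depth of each library is unknown. Symbols were found for 26686 of 26852 Ensembl IDs.

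The design had been written for log2 of a normalized count plus 1, and the test was applied to the deposited log2 values directly. All 21 libraries entered a limma 3.58.1 fit (R 4.3.3) with 4 groups for the 5 pooled comparisons and with 7 groups for the lines apart, with a mean-variance trend, two-sided tests and Benjamini-Hochberg adjustment over 12976 genes with a mean of at least 3.32. The fit was tested on simulated data. Genes named are the 10 members, pathway genes called in a comparison, and the 3 genes nearest to each called member. Hes1 is the exception, and its nearest genes are not used here. Further ligands and targets are named where they were not tested or not called. Markers are given as lists, and single markers named as examples were chosen after their values were seen. The members and the 7 pathway and 9 marker lists were chosen with earlier results of these data known. Alternatives were other filters, scalings, variance settings, thresholds, sample sets and each library left out; for the lines apart, leaving out libraries was chosen after seeing the data. Exon length and positions are from GENCODE on GRCm38. Figures were drawn with matplotlib 3.10.9.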

Additional observations from a re-analysis of the deposited data

Results flagged for a closer look

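In groups of 6 libraries, the gap between the highest or lowest library and its nearest neighbor was set against the range of the group. Of 57 groups over 19 genes, 8 held a library that stood far from the others. Each group held 3 HL60 and 3 ML1 libraries, and the number expected by chance was not measured. Among the members, these were Notch2 in ML1 ch- replicate 544, at a high 11.53, Jag1 in ML1 ch+ replicate 541, at a low 7.19, and Dll1 in ML1 ch- replicate 546, at a high 2.42. Among the other pathway genes, Lfng was low in ML1 ch+ replicate 541, at 4.82, Ncstn low in ML1 ch- replicate 544, at 8.37, and Maml2 high in ML1 ch- replicate 543, at 9.43. Spen was low in HL60 ch- replicate 527, at 10.16, and Dtx4 low in HL60 late replicate 399, at 9.05. Without replicate 541, Jag1 in late against ch+ cells was 0.94, and without replicate 399 Dtx4 in late cells against ctrl was 1.20. In the main limma fit, no tested member and no pathway gene called in a pooled comparison differed between HL60 and ML1 at an adjusted p under 0.1. Other settings called single members at the late stage, as given below.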

How the results depend on the processing

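Over fits that each lack 1 library, the number of members called was 4 to 6 in late against ctrl, 7 to 7 in late against ch+, 1 to 2 in ch+ against ctrl, 0 to 1 in ch- against ctrl, 1 to 2 in ch+ against ch-, and 0 to 0 between the lines at each stage. Under the other settings the count in late against ch+ was 5 to 9. In late against ctrl it was 3 where a doubling or halving was also required, and otherwise 5 to 8. In ch+ against ctrl it fell from 2 to 1 without a filter on low values, with the compared groups alone, with HL60 or ML1 libraries alone, at an adjusted p under 0.05 and with the minimum fold change. In ch- against ctrl it fell from 1 to 0 without a filter, with rescaling to library totals, without the variance trend, with the compared groups alone, with HL60 libraries alone and at an adjusted p under 0.05. In ch+ against ch- it rose from 1 to 2 with a filter at a mean log2 value of 5, which is stricter than 3.32 and drops Notch4. The count also rose to 2 with the compared groups alone, with the 7-group fit and with ML1 libraries alone, and was 0 with the minimum fold change. Between late HL60 and ML1 cells it was 1 with rescaling (Notch3), and 1 with sample weights and with the compared groups alone (Notch1). Rescaling to library totals turned the log2 fold change of Furin in late cells to 0.39 against ctrl and 0.0588 against ch+, of Spen to 0.14 and 0.27, and of Ctbp1 to 0.13 and 0.46, since it raised late values by the shift of all genes. For the other changes the cause was not tested. No member changed sign in a comparison where it was called in the main fit or under the alternative. No paired analysis was possible because the groups share no replicate numbers, and no label says which ch+ and ch- libraries come from the same mice. Depth per library is not known, and the regularization limits what can be seen for Notch4 and Dll1.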
